A study of Mus musculus with 10 samples.

Results

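Interferon-induced genes were followed as a set of 36 genes listed by symbol (Isg15, Oasl2, Irf7, Bst2, Ifi27l2a and the others described below), and each was matched to the deposited table through its Ensembl identifier. Rows were present for 35 of the 36 among the 16154 genes of the table, and Mx1 had no row. Of the 35, 24 were tested, each with 5 or more of the 10 libraries at or above 1 normalized count per M. The other 11 lay near 0 and are given by their values. M is the mean total of the 10 columns, in mega, so that a level per M is a share of all normalized counts.

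The RNA came from alveolar type II (AT2) cells, the epithelial cells of the lung that make surfactant, sorted from C57BL/6 mice aged 8 to 10 weeks. Replicates 2 to 6 are labelled wild type, and replicates 1 to 5 of a second group of 5 are labelled as lacking HOIL-1L. This protein, the product of Rbck1, is a subunit of LUBAC, the ligase that assembles linear ubiquitin chains in immune signalling. How the gene was removed is given in 2 ways: as HOIL-1L -/- in the genotype label, and in the design text as CreSPC/HOIL-1Lfl/fl, in which the surfactant protein C promoter, active in AT2 cells, drives Cre on floxed alleles. No other allele or treatment is named for either group. Each title has its own mouse number, so libraries were taken as separate mice, and p-values measure only the spread between these libraries.

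Interferons bind receptors on the cell surface, and the kinases Jak1 and Tyk2 then phosphorylate transcription factors of the STAT family. Stat2 joins Irf9 in a complex that binds the interferon-stimulated response element in promoters and switches on antiviral effectors, sensors of viral nucleic acids, and feedback genes. Several of the products, among them Stat2, Irf9 and Irf7, belong to the pathway itself, and epithelial cells of the airways and alveoli keep a low level of this programme without infection.

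Library depth can be given only roughly, at 7.69 to 13.2 M reads, since the spacing of low values from which it was estimated held for no more than 24.3% to 48.4% of them. Surfactant and other AT2 markers summed to 206200 to 248500 per M, with all 8 markers present in the table. Rbck1, the targeted gene, stood at 29.7, 56.7, 57.8, 56.1 and 56.6 per M in wild type 2 to 6, and at 59.3, 29.8, 36.4, 38.0 and 38.8 in knockout 1 to 5. The library labelled wild type 2 thus lay with most knockout libraries and the library labelled knockout 1 with most wild type ones, and the groups overlapped (log2 difference -0.34, two-sided exact permutation p = 0.206, where 5 against 5 libraries cannot go below 0.00794). Genotype differences below are therefore given for all 10 libraries and for the 8 without these. Mouse numbers fell into 2 runs, with wild type 2 and 3 and knockout 1 to 3 in the first and the other 5 libraries in the second. Sex, which the labels do not give, was read from Xist (39.0 to 89.1 per M in 3 libraries, 1.44 to 3.16 in 7) and Y-linked genes: wild type 2 and knockout 2 and 3 were female, and the other 7 were male. All 3 female libraries were of the first run and had low Rbck1, so that in the first run sex and the level of Rbck1 cannot be told apart.

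Promoters of these genes are where the complex of Stat2 and Irf9 is known to act. The 4 shown were picked because they hold a match to the element, so they do not stand for the set. Trim30a and Bst2 are among the genes called for genotype below, and Isg15 and Oas1a are not. Rnf213, also called, had no match in its window and is not shown. The RefSeq promoter table (GRCm38.p6) held 27 of the 36 genes, and each window ran from 250 bases before the start to 50 after it. Its core was searched as GAAANNGAAA on both strands (TTTCNNTTTC as read from the gene's strand), with overlapping matches counted. A match was found for 17 of the 27 genes (63%), against 1079 of the 27025 genes of the promoter table (3.99%). The 150 bases before the start are printed 5′ to 3′ on the gene's strand, with capitals for the matching bases.
Isg15, chr4:156200819-156200968, minus strand: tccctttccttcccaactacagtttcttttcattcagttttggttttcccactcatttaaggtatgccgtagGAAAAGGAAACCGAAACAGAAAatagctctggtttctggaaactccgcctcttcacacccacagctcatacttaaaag
Bst2, chr8:71537473-71537622, minus strand: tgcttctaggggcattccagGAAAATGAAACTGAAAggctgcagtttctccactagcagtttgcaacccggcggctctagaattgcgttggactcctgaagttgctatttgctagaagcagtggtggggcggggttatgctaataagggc
Trim30a, chr7:104465194-104465343, minus strand: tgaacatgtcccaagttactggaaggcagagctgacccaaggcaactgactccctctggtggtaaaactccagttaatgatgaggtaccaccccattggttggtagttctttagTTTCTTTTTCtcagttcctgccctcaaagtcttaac
Oas1a, chr5:120907526-120907675, minus strand: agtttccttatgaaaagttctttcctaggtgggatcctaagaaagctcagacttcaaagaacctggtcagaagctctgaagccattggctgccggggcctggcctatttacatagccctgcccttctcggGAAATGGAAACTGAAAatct

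Isg15 held 3 overlapping matches, starting 78, 72 and 66 bases before the start (first bases at -78, -72 and -66). Bst2 and Oas1a held 2 overlapping matches each, at -130 and -124 and at -20 and -14. Trim30a held 1 in this window, on the other strand, at -36. No match to these letters lay in the windows of Rnf213, Oasl2, Irf7, Irf9, Ifit2, Oasl1, Ifi44, Ifi35, Cmpk2 and Xaf1, and 9 genes, Ifi27l2a and Usp18 among them, had no entry. Of the genes called for genotype in 8 libraries, Trim30a and Bst2 had a match, Rnf213 had none and Ifi27l2a had no entry. The RefSeq window of Rnf213, 119389849 to 119390148 on chromosome 11, ended before the GENCODE gene start at 119393100. The bases around that GENCODE start were therefore not searched. Each match is a description of letters and no sign of binding in these cells.

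**Figure D1:**
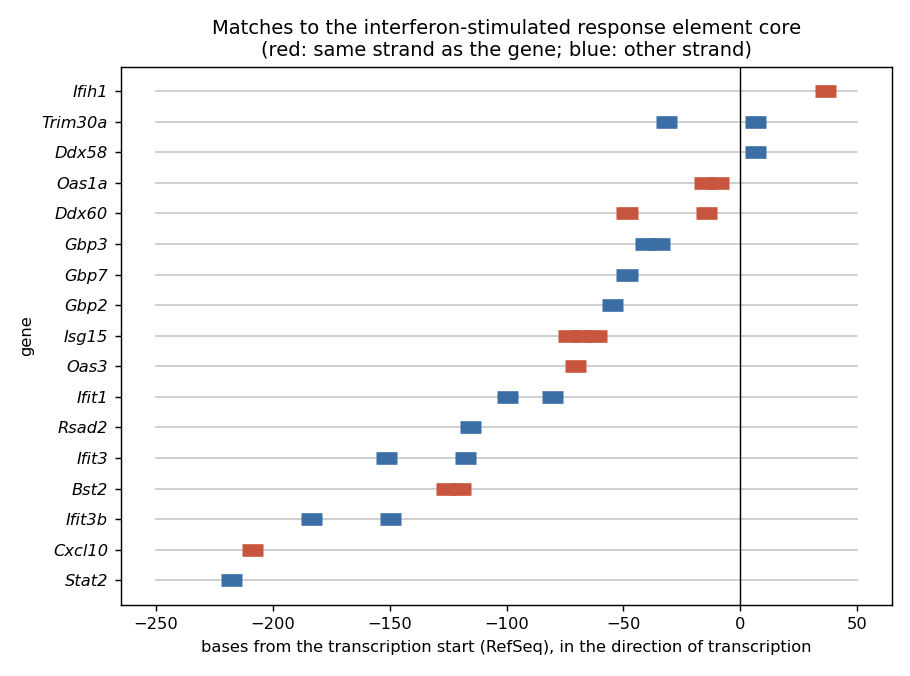
Positions of matches to the response element core in the promoter windows of the 17 genes that held one, with distance from the RefSeq transcription start on the x axis in bases (0 is the start) and 1 gene per row, red for matches on the gene's strand and blue for the other. Of 27 matches in all windows, 24 began before the start, the 3 overlapping matches of Isg15 among them.

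Levels differed widely between these genes. Divided by exon length, which allows genes to be compared, mean levels over the 10 libraries were highest for Bst2 (25.4 per M per kb), Ifi27l2a (14.5), Ifi35 (7.2) and Irf9 (5.09), and lowest among the 35 for Oas2 (0.0185). Before division, means of the tested genes ran from 1.19 per M (Ifit3) to 66.9 per M (Rnf213); 10 of the 24 lay below 5 per M and 7 were at 20 per M or above. The lowest of these lie close to the limit of 1 per M that was set for testing.

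With all 10 libraries as labelled, no gene of the table passed (limma, adjusted p under 0.05, background 0.0% of 12946 genes), and none of the 24 tested interferon-induced genes did. Without an adjustment, 4 of the 24 were higher in the knockout libraries at p under 0.05 (Rnf213, Ddx58, Stat2 and Trim30a; background 6.2% of all genes) and none was lower (background 3.28%); over all genes, 1227 passed in either direction (9.48%). Log2 fold changes lay above 0 for 20 of the 24, against 51.3% of all genes, with a median of 0.23 beside 0.01. Without wild type 2, the wild type libraries left are all male, while knockout 2 and 3 are female. Genotype and sex are therefore partly mixed in the 8 libraries, and fits with sex held are given below. In the 8 libraries, 4 of the 24 rose at adjusted p under 0.05 (Rnf213, Trim30a, Bst2 and Ifi27l2a, background 0.286%) and none fell (background 0.116%). Another 10 were higher at unadjusted p under 0.05, which makes 14 of 24 (background 7.84%), and 22 lay above 0 (background 50.1%), with a median of 0.54 beside 0.00 for all genes. Knockout values lay wholly above wild type values for 8 of the 24 (background 3.85%), and wild type wholly above knockout for none (background 2.87%). In bulk RNA, fewer cells of a type and less RNA per cell cannot be told apart.

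**Figure D2:**
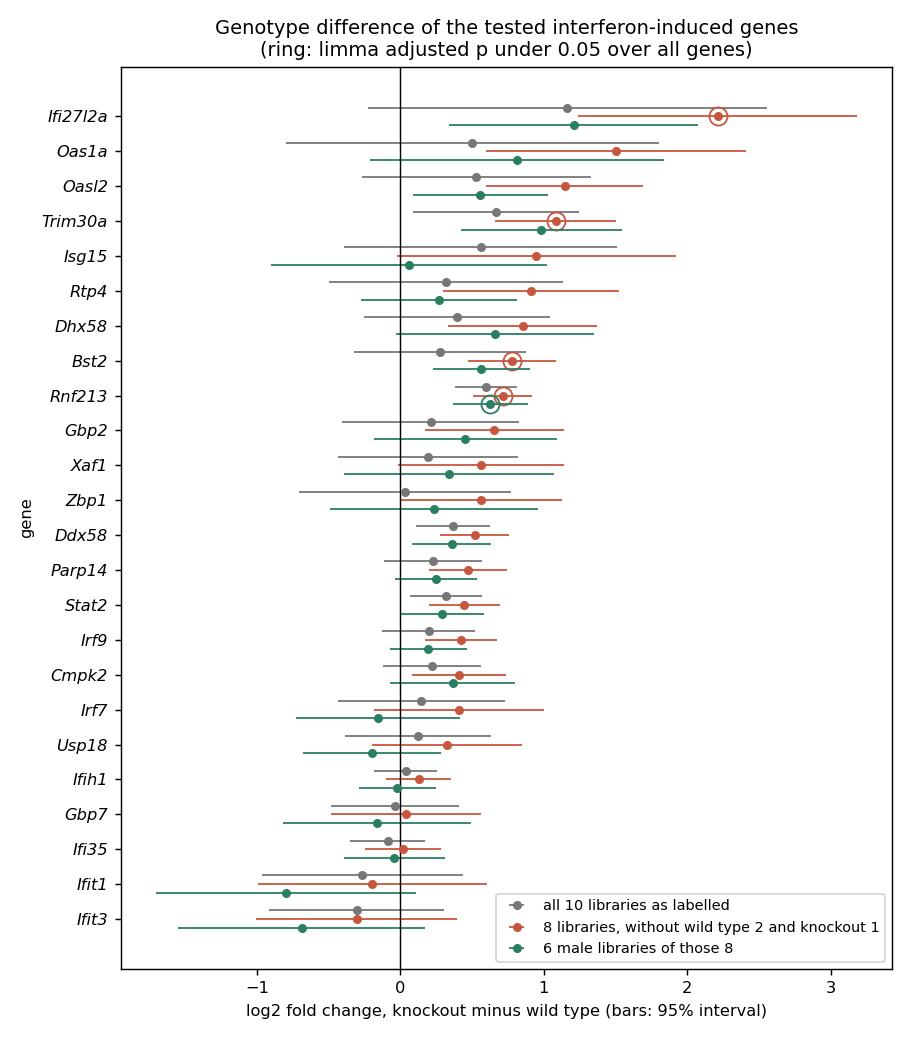
Log2 fold change of each of the 24 tested genes, knockout minus wild type, with 95% intervals, for all 10 libraries (grey), the 8 libraries without wild type 2 and knockout 1 (red) and the 6 male libraries of those 8 (green). Rings mark adjusted p under 0.05 with limma: Rnf213, Trim30a, Bst2 and Ifi27l2a among the red points and Rnf213 alone among the green.

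Members of the table that lead the comparison are given first. Rnf213 (chromosome 11, 119393100 to 119487418, plus strand, mm10), a giant ubiquitin ligase with ATPase activity that acts at lipid droplets and on intracellular bacteria, stood at 58.4, 47.4, 46.0, 55.6 and 57.6 per M in wild type 2 to 6 and at 64.0, 86.5, 93.1, 72.1 and 88.1 in knockout 1 to 5. Its lowest knockout library, the one labelled knockout 1, lay above its highest wild type library, wild type 2, and it was the only one of the 24 whose groups did not overlap in all 10 libraries (background 0.958%). As labelled, the log2 fold change was 0.60 ± 0.10 (SE, n = 5 and 5, limma adjusted p = 0.269). In the 8 libraries the means were 51.7 ± 5.82 and 85.0 ± 9.0 per M (SD, n = 4 each). Here Rnf213 rose by 0.71 ± 0.10 on the log2 scale (limma adjusted p = 0.00167), or 1.64-fold. It passed in each of the 8 fits that left out 1 of these libraries (adjusted p from 0.000598 to 0.0103). Of all 20 alternative fits of the 8 libraries it passed in 19, and it did not pass with no filter (limma adjusted p = 0.1875). It also passed among the 10 libraries when knockout 1 alone was left out (adjusted p = 0.0112; background 0.0154%). The exons of Rnf213 overlap the antisense gene A930037H05Rik, and whether counting used the strand is not given in the sources used here.

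Trim30a (chromosome 7, 104409025 to 104465193, minus strand), a mouse TRIM family protein that restrains inflammatory signalling, stood at 3.82, 1.80, 2.08, 1.97 and 2.62 per M in wild type 2 to 6 and at 1.67, 6.61, 4.37, 4.48 and 4.79 in knockout 1 to 5. Values of the 4 knockout libraries other than knockout 1 exceeded every wild type value, and knockout 1 was the lowest library of the 10. In 10 libraries its log2 fold change was 0.67 ± 0.27 (limma adjusted p = 0.479). It was 1.08 ± 0.20 in 8 (means 2.12 ± 0.358 and 5.06 ± 1.05 per M, SD, n = 4 each, limma adjusted p = 0.0219). Leaving out wild type 4, wild type 5, knockout 2 or knockout 5 ended the call (adjusted p = 0.0785, 0.0855, 0.0756 and 0.0597), with the fold change between 0.96 and 1.10 in those fits. The call also ended with no filter, with sex as a covariate (limma adjusted p = 0.188) and in the male libraries alone (limma adjusted p = 0.237). Of the 75-base stretches of its exons, 4.98% also occur in other genes, mainly its neighbour Trim30d, whose own log2 fold change was 0.42 in 10 libraries and 0.60 in 8 (limma adjusted p = 0.522 and 0.219).

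Bst2 (chromosome 8, 71534255 to 71537456, minus strand) encodes tetherin, a membrane protein that holds budding viruses on the cell. It stood at 47.1, 14.8, 19.3, 12.8 and 14.6 per M in wild type 2 to 6 and at 13.8, 34.4, 27.5, 22.4 and 22.9 in knockout 1 to 5. Both doubted libraries lay at the far end of their group, wild type 2 above every knockout library and knockout 1 below all but 1 of the wild type ones. With all 10 the log2 fold change was 0.28 ± 0.28 (limma adjusted p = 0.785), and with 8 it was 0.78 ± 0.15 (means 15.4 ± 2.77 and 26.8 ± 5.56 per M, SD, n = 4 each, limma adjusted p = 0.0224). Without wild type 5, knockout 2 or knockout 3 it no longer passed (adjusted p = 0.106, 0.0578 and 0.0884). Nor did it pass with no filter, with sex as a covariate (limma adjusted p = 0.223) or in the male libraries alone (limma adjusted p = 0.278). Among the first run's libraries as labelled the sign turned, with a log2 fold change of -0.17.

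Ifi27l2a (chromosome 12, 103442167 to 103443680, minus strand), a small membrane protein of the Ifi27 family, had the largest fold change of the 24 in both fits. Its values were 16.1, 2.65, 2.20, 1.04 and 0.549 per M in wild type 2 to 6 and 1.54, 18.7, 16.2, 5.54 and 2.78 in knockout 1 to 5. The 3 female libraries, 1 of them labelled wild type, lay at 16.1 to 18.7 and the 7 male ones at 0.549 to 5.54. In 10 libraries the log2 fold change was 1.16 ± 0.66 (limma adjusted p = 0.592), and in 8 it was 2.21 ± 0.46 (means 1.61 ± 0.979 and 10.8 ± 7.80 per M, SD, n = 4 each, limma adjusted p = 0.0488). The call in 8 libraries was lost without wild type 4, 5 or 6 or knockout 2 or 3 (adjusted p from 0.0708 to 0.181). It was lost as well with a pseudocount of 0.1 or 2, with TMM factors and with median-ratio factors (adjusted p = 0.0514, 0.0533, 0.0512 and 0.0514). The same held with no filter, with sex as a covariate (limma adjusted p = 0.257) and in the male libraries alone (limma adjusted p = 0.338).

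**Figure D3:**
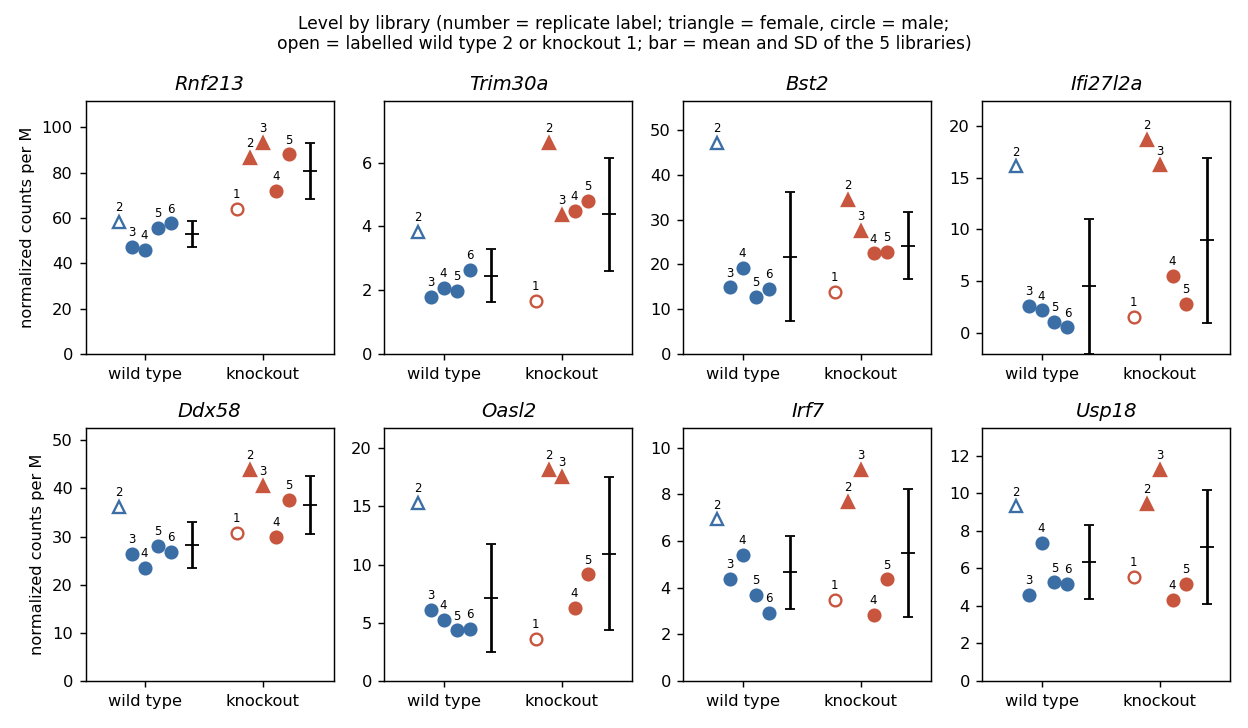
Normalized counts per M of 8 interferon-induced genes by library, with wild type in blue and knockout in red, the replicate label above each point, triangles for female and circles for male libraries, open symbols for the libraries labelled wild type 2 and knockout 1, and a bar for the mean and SD of each group of 5. For Bst2, Ifi27l2a, Oasl2, Irf7 and Usp18 the 3 triangles lie above all circles, while for Rnf213 the male knockout libraries 4 and 5, at 72.1 and 88.1, lie above every wild type library.

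Among the factors that drive the programme, Stat2, which is phosphorylated after receptor activation, stood at 26.4, 26.7, 20.2, 20.5 and 23.4 per M in wild type 2 to 6 and at 23.0, 34.6, 34.4, 28.9 and 26.5 in knockout 1 to 5. Knockout 2, 3 and 4 lay above every wild type library, and knockout 5 and knockout 1 within the wild type range. Its log2 fold change was 0.32 ± 0.12 in 10 libraries and 0.45 ± 0.12 in 8 (limma adjusted p = 0.433 and 0.122). Irf9, the DNA-binding partner in that complex, stood at 36.9, 24.1, 23.2, 21.6 and 22.1 per M in wild type 2 to 6 and at 22.4, 36.9, 34.8, 27.0 and 25.2 in knockout 1 to 5. Female libraries lay at 34.8 to 36.9 whatever their label and male ones at 21.6 to 27.0, of which knockout 4 and 5 were the highest. For Irf9 it was 0.20 ± 0.15 in 10 libraries and 0.42 ± 0.12 in 8 (limma adjusted p = 0.70 and 0.158). Its exons overlap Rnf31, which codes for another LUBAC subunit, on the same strand.

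Irf7, the factor that amplifies interferon production, stood at 6.93, 4.37, 5.40, 3.68 and 2.91 per M in wild type 2 to 6 and at 3.48, 7.68, 9.05, 2.85 and 4.35 in knockout 1 to 5. Its 3 highest libraries were the female ones, and the male knockout libraries lay within the male wild type range or just below it. The log2 fold change was 0.15 in 10 libraries (limma adjusted p = 0.886). In 8 it was 0.41, with a 95% interval of -0.18 to 1.0 (limma adjusted p = 0.545), and among the 6 male libraries of these it was -0.16. Usp18, the protease that removes Isg15 from proteins and damps the receptor, stood at 9.31, 4.57, 7.36, 5.25 and 5.16 per M in wild type 2 to 6 and at 5.54, 9.46, 11.3, 4.33 and 5.17 in knockout 1 to 5. Again the female libraries were the 3 highest. For Usp18 the log2 fold change was 0.12 in 10 libraries (limma adjusted p = 0.891). It was 0.33 in 8, with a 95% interval of -0.20 to 0.85 (limma adjusted p = 0.589), and -0.20 in the male ones.

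None of the sensors of viral nucleic acids passed in 10 or in 8 libraries. Ddx58, which encodes RIG-I, stood at 36.2, 26.3, 23.6, 28.1 and 26.8 per M in wild type 2 to 6 and at 30.7, 43.9, 40.5, 30.0 and 37.7 in knockout 1 to 5. All 5 knockout values exceeded those of wild type 3 to 6, and wild type 2 lay among the knockout values. Its log2 fold change was 0.37 ± 0.12 in 10 libraries and 0.52 ± 0.11 in 8 (limma adjusted p = 0.366 and 0.0548), and it passed in 8 libraries once knockout 4 was left out (adjusted p = 0.00791). Ifih1, which encodes the related sensor MDA5, had means of 29.6 ± 1.56 and 32.6 ± 4.76 per M in the 8 libraries (SD, n = 4 each) and a log2 fold change of 0.13, against 0.04 in 10 (limma adjusted p = 0.638 and 0.932). Dhx58, which encodes the regulator LGP2, had means of 1.68 ± 0.515 and 3.43 ± 0.815 per M there and a log2 fold change of 0.85, against 0.40 in 10 (limma adjusted p = 0.163 and 0.696). Zbp1, a sensor of Z-form nucleic acids, had a log2 fold change of 0.56 in 8 libraries and 0.03 in 10 (limma adjusted p = 0.385 and 0.982), with 5.42 per M in wild type 2 as its highest value.

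Of the antiviral effectors that bind or destroy RNA, Oasl2, a relative of the 2',5'-oligoadenylate synthetases, stood at 15.3, 6.09, 5.27, 4.33 and 4.48 per M in wild type 2 to 6 and at 3.60, 18.1, 17.5, 6.27 and 9.16 in knockout 1 to 5. Without wild type 2 and knockout 1 the groups did not overlap, and the lowest knockout value, 6.27, lay close to the highest wild type value, 6.09. For Oasl2 the log2 fold change was 0.53 ± 0.38 in 10 libraries and 1.15 ± 0.26 in 8 (limma adjusted p = 0.673 and 0.0662), and without knockout 4 it was 1.43 and passed (adjusted p = 0.00367). Oas1a, a synthetase that activates RNase L, was listed at 0 in wild type 6 and knockout 1 and reached 5.17, 5.68 and 3.37 per M in the female libraries wild type 2, knockout 2 and knockout 3. Its log2 fold change was 0.50 in 10 libraries and 1.5 in 8 (limma adjusted p = 0.82 and 0.162), and 47.6% of the 75-base stretches of its exons also occur in Oas1g, so that its level is uncertain. Ifit1 and Ifit3, which bind viral RNA and its partners, were the only tested genes with fold changes below 0 in 8 libraries, at -0.20 and -0.31 (limma adjusted p = 0.865 and 0.734), and in 10 libraries they stood at -0.27 and -0.31 (limma adjusted p = 0.823 and 0.76). Ifit3 shares 41.1% of such stretches with Ifit3b.

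Isg15, the ubiquitin-like modifier that gives the programme one of its hallmarks, stood at 4.08, 1.26, 3.20, 0.387 and 1.15 per M in wild type 2 to 6 and at 1.80, 7.01, 4.72, 1.15 and 1.54 in knockout 1 to 5. The female libraries were again the 3 highest, and the male knockout libraries lay within the range of the male wild type ones. Its log2 fold change was 0.56 ± 0.45 in 10 libraries and 0.95 ± 0.46 in 8 (limma adjusted p = 0.711 and 0.391), and 0.06 in the male libraries of the 8. Parp14, a mono-ADP-ribosyl transferase, stood at 39.8, 25.6, 29.8, 24.4 and 27.0 per M in wild type 2 to 6 and at 23.7, 46.6, 40.4, 28.3 and 35.6 in knockout 1 to 5. Female libraries took the 3 highest places here too, and knockout 5 the next. Its log2 fold change was 0.23 ± 0.16 in 10 libraries and 0.47 ± 0.13 in 8 (limma adjusted p = 0.666 and 0.141). Cmpk2, a nucleotide kinase of mitochondria, stood at 10.2, 6.62, 7.73, 5.65 and 8.72 per M in wild type 2 to 6 and at 6.83, 10.2, 9.64, 8.09 and 10.6 in knockout 1 to 5. The groups overlapped, with the male library knockout 5 the highest of all. The log2 fold change of Cmpk2 was 0.22 ± 0.16 in 10 libraries and 0.41 ± 0.16 in 8 (limma adjusted p = 0.682 and 0.278).

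The remaining tested genes were Gbp2 and Gbp7, guanylate-binding proteins that act on membranes of pathogens, Rtp4, a chaperone of receptors, Xaf1, a promoter of apoptosis, and Ifi35. Gbp2 had means of 2.12 ± 0.588 and 3.59 ± 0.725 per M in the 8 libraries, without overlap (SD, n = 4 each, log2 fold change 0.65, limma adjusted p = 0.241). In 10 libraries its log2 fold change was 0.21 (limma adjusted p = 0.84). Rtp4 had means of 3.81 ± 1.08 and 8.25 ± 4.23 per M (log2 fold change 0.91, and 0.32 in 10 libraries, limma adjusted p = 0.204 and 0.817), and its highest values were 12.0 and 11.8 in the female libraries knockout 2 and 3. Xaf1, Gbp7 and Ifi35 had log2 fold changes of 0.56, 0.04 and 0.02 in 8 libraries (limma adjusted p = 0.391, 0.963 and 0.971) and of 0.19, -0.04 and -0.09 in 10 (limma adjusted p = 0.859, 0.969 and 0.842). For Ifi35, the best expressed of these, the means were 12.0 ± 1.62 and 12.1 ± 0.598 per M.

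The 11 genes that were not tested were Ifit2, Ifit3b, Mx2, Oas2, Oas3, Oasl1, Rsad2, Ddx60, Cxcl10, Gbp3 and Ifi44, with means of at most 1.05 per M (Gbp3). Rsad2, which encodes the antiviral protein viperin, had a mean of 0.605 per M. Mx2, which the annotation calls a polymorphic pseudogene, had a mean of 0.242 per M and was listed at 0 in 3 libraries. Gbp3 stood at 1.56 per M in wild type 2, 2.67 in knockout 2 and 2.39 in knockout 3, the female libraries, and at no more than 0.90 in the male ones. Cxcl10, a chemokine that draws T cells, was at 2.98 and 2.85 per M in wild type 2 and 3 and at no more than 0.41 in the other 8 libraries. Ptprc, the pan-leukocyte gene CD45, was highest in these same libraries, at 2.61 and 2.11 per M against 0.109 to 0.877 elsewhere, and its part in the level of Cxcl10 was not tested. With all 35 genes kept, the median log2 fold change was 0.20 in 10 libraries and 0.51 in 8.

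**Figure D4:**
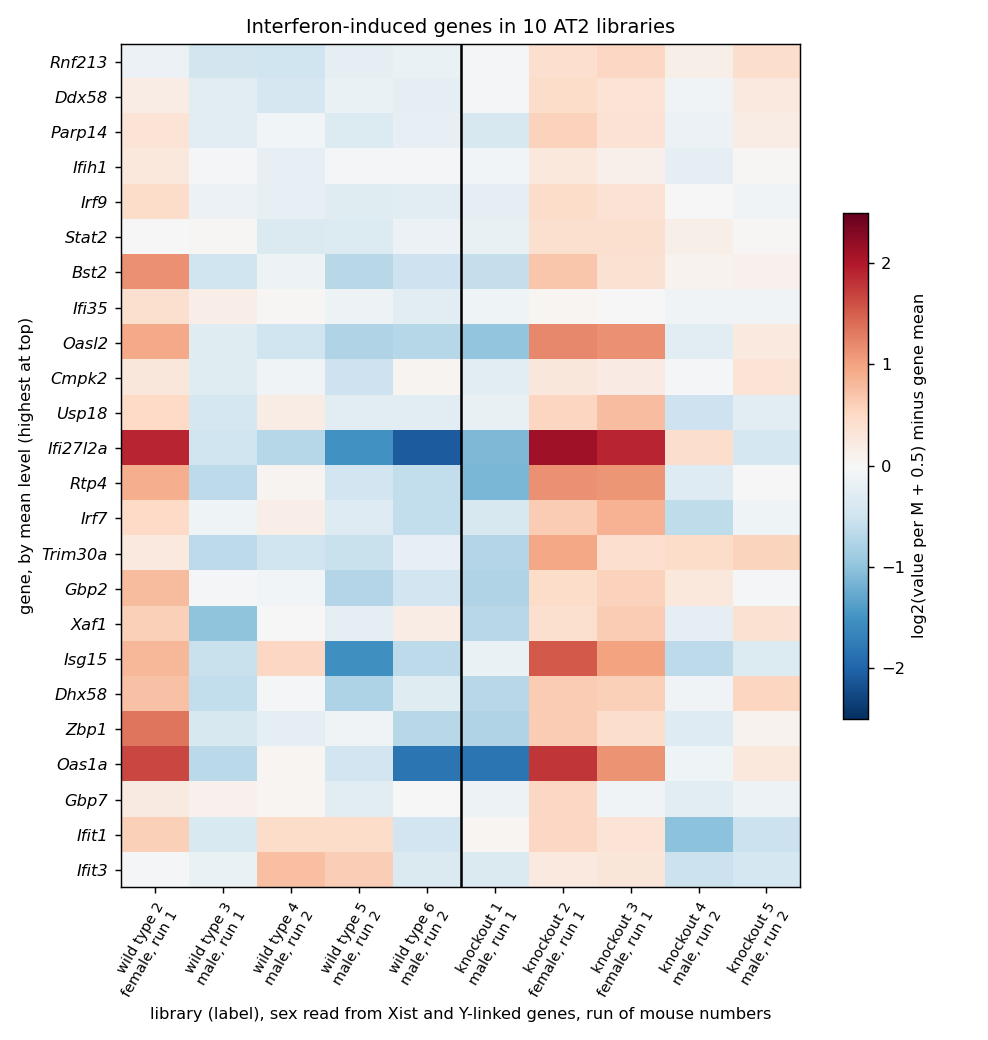
Log2(value per M + 0.5) of the 24 tested genes minus each gene's mean, in color from blue (low) to red (high), with genes ordered by mean level and libraries by label, sex and run. The columns of wild type 2, knockout 2 and knockout 3, the 3 female libraries, are red for most genes, and 22 of the 24 genes had their highest library among them.

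Levels were also read library by library. Over the 24 tested genes, the median level relative to each gene's mean (log2) was 0.51 in wild type 2, 0.52 in knockout 2 and 0.43 in knockout 3. In the male libraries it was -0.35, -0.07, -0.33 and -0.29 in wild type 3 to 6, -0.37 in knockout 1, -0.13 in knockout 4 and 0.03 in knockout 5. The 3 female libraries thus stood apart from the 7 male ones, and among male libraries knockout 5, wild type 4 and knockout 4 were the highest. All 3 female libraries lay above all 7 male ones for 15 of the 24 genes (background 2.03%) and below them for none (background 1.68%).

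**Figure D5:**
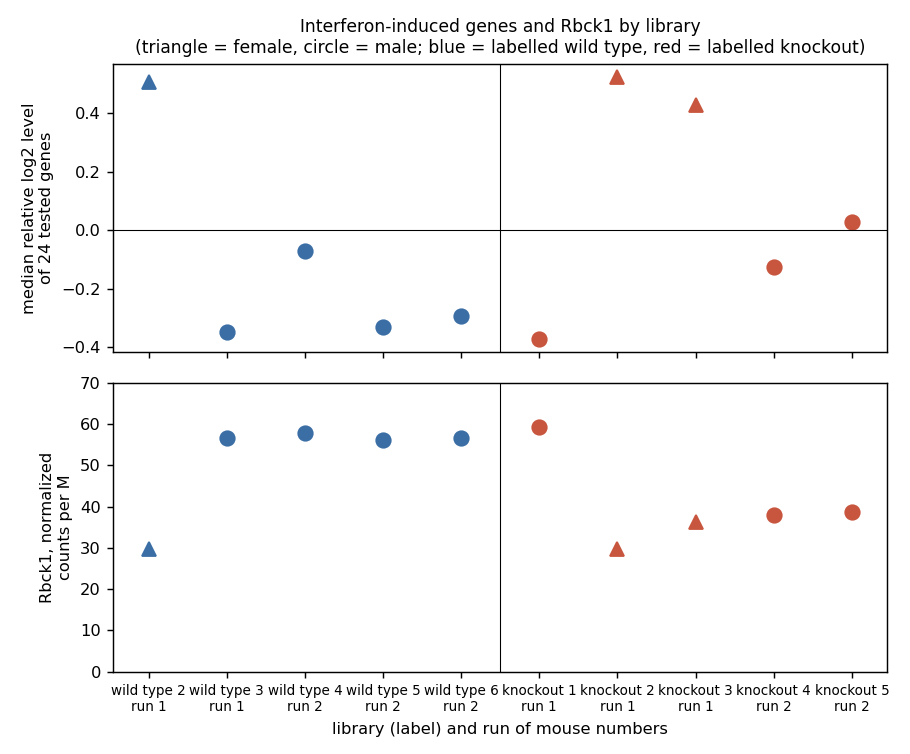
Median relative log2 level of the 24 tested genes (top) and Rbck1 in normalized counts per M (bottom) for each library, in blue for those labelled wild type and red for knockout, with triangles for female and circles for male. The 3 triangles have medians of 0.43 to 0.52 and Rbck1 of 29.7 to 36.4 per M, while the male libraries knockout 4 and 5, with Rbck1 at 38.0 and 38.8, have medians of -0.13 and 0.03.

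A fit of all 10 libraries with sex beside genotype put this in numbers. The female libraries were higher at adjusted p under 0.05 for 11 of the 24 genes (limma; background 0.626%) and lower for none (background 0.178%). At unadjusted p under 0.05, 20 were higher (background 5.24%) and none lower (background 5.53%), and all 24 terms lay above 0 (background 48.3%), with a median of 0.78 beside -0.01 for all genes. Ifi27l2a had the largest term, 2.67 ± 0.33 on the log2 scale or 6.37-fold (limma adjusted p = 0.000318). Oasl2 was next to it in p, with 1.51 ± 0.20 (limma adjusted p = 0.000645). Rtp4 (1.5), Irf9 (0.59), Bst2 (1.04), Usp18 (0.87), Parp14 (0.58), Oas1a (2.2), Irf7 (0.97), Isg15 (1.55) and Zbp1 (1.2) also passed, with limma adjusted p from 0.00213 to 0.0353. Rnf213 (0.24, limma adjusted p = 0.396) and Trim30a (0.66, limma adjusted p = 0.331) did not. The term sets wild type 2, knockout 2 and knockout 3, all with low Rbck1, against the rest. In the 8 libraries, where every female one is a knockout, none of the 24 passed (background 0.0541% higher and 0.0309% lower), 13 were higher and none lower at unadjusted p under 0.05 (background 3.41% and 2.69%) and all 24 lay above 0 (background 49.5%).

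Genotype with sex held was then read in 2 ways. With sex as a covariate in the 8 libraries, only Rnf213 of the 24 passed (0.63, limma adjusted p = 0.0288; background 0.131%), 8 were higher and none lower at unadjusted p under 0.05 (background 6.39% and 5.21%), and the median log2 fold change was 0.28. The same coefficients come from the 6 male libraries alone, 4 wild type and 2 knockout, where Rnf213 was again the only one to pass (limma adjusted p = 0.0414; background 0.131%) and 6 were higher at unadjusted p under 0.05 (background 5.76%). There the log2 fold changes of Trim30a, Bst2, Ifi27l2a, Ddx58 and Oasl2 were 0.98, 0.56, 1.21, 0.36 and 0.56 (limma adjusted p from 0.237 to 0.407), and the interval of each lay above 0. Of the 24 log2 fold changes, 17 lay above 0, where the median over all genes was 0.01. Those below 0 were of Ifit1 (-0.80), Ifit3 (-0.69), Usp18 (-0.20), Gbp7 (-0.16), Irf7 (-0.16), Ifi35 (-0.04) and Ifih1 (-0.02). In the 10 libraries with sex as a covariate none passed with limma. The same 4 as without it had an unadjusted p under 0.05 (background 6.84%). In that fit 16 of the 24 lay above 0, and the median was 0.07 beside 0.01 for all genes.

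Each run was also read alone. In the second run, with 3 wild type and 2 knockout libraries, all male, none of the 24 passed with limma (41 genes did over the table, 0.317%). Rnf213 came closest, with a log2 fold change of 0.59 (limma adjusted p = 0.0698). At unadjusted p under 0.05, 7 genes were higher (Rnf213, Ifi27l2a, Trim30a, Bst2, Oasl2, Stat2 and Ddx58; background 5.62%) and Ifit1 was lower (background 4.43%), and 9 had knockout values above all wild type ones (background 14.8%). In the first run as labelled, none passed and 1, Rnf213, was higher at unadjusted p under 0.05 (background 5.99%). Without wild type 2 and knockout 1, the first run holds wild type 3 alone beside knockout 2 and 3. A difference between the runs in the 8 libraries therefore rests on 1 wild type library in the first run. It cannot be read as a replicated comparison of runs. None of the 24 passed a test of the difference in genotype effect between the runs, in 10 libraries (2 genes of the table called, 0.0154%) or in 8 (24 genes, 0.185%). In 8 libraries, 8 of the 24 had a smaller difference in the second run at unadjusted p under 0.05 (background 3.04%), and both female knockout libraries are in the first.

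Genes upstream of the programme were read from 2 further lists and a list of ligands. None of the 21 interferon ligands on a list of them had a row under its symbol, so none was tested. All 18 receptors and signal transducers listed were tested and none passed in 10 or 8 libraries with limma. At unadjusted p under 0.05, 1 was higher in 10 libraries (background 6.2%) and 4 in 8 (background 7.84%), Irf2, Ifngr2 and Tyk2 among them. The median log2 fold change was 0.05 in both fits, against 0.01 and 0.00 for all genes. Jak1, the kinase shared by the receptors, lay between 111 and 120 per M in all 10 libraries. Of genes that sense nucleic acids and induce interferon, 13 of 17 with a row were tested and none passed for genotype. At unadjusted p under 0.05, 3 of the 13 were higher in 8 libraries (background 7.84%) and none in 10 (background 6.2%). None was lower in either fit, and the median log2 fold changes were 0.10 and 0.07. Samhd1, an enzyme that lowers the pool of free nucleotides, came closest, with a log2 fold change of 0.20 in 10 libraries and 0.39 in 8 (limma adjusted p = 0.624 and 0.0842), and Trim25, the ligase that assists RIG-I, passed the sex term (0.36, limma adjusted p = 0.0213).

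A longer list held 75 further interferon-induced genes, of which 65 had a row and 47 were tested. In 8 libraries 2 of these rose, Lgals3bp (0.79, means 37.9 ± 4.73 and 67.6 ± 19.3 per M, SD, n = 4 each, limma adjusted p = 0.0371), a secreted glycoprotein, and Uba7 (0.63, means 17.5 ± 3.42 and 26.9 ± 1.91 per M, limma adjusted p = 0.0459), the activating enzyme for Isg15, beside the background of 0.286%. In 10 libraries their log2 fold changes were 0.32 and 0.43 (limma adjusted p = 0.723 and 0.369), and the highest library for Lgals3bp was wild type 2, at 100.1 per M. With sex as a covariate in the 8 libraries neither passed, 6 of the 47 were higher and 1 lower at unadjusted p under 0.05 (background 6.39% and 5.21%), and the median was 0.10. Without that covariate, at unadjusted p under 0.05, 17 were higher (background 7.84%) and none lower (background 5.25%), and the median was 0.23. In 10 libraries none passed with limma, 5 were higher at unadjusted p under 0.05 (background 6.2%), and the median was 0.09. The sex term of the 10 libraries passed for 9 of the 47, all higher in the female ones, Lgals3bp (1.09) and Ifi27 (0.68) among them, beside the background of 0.626%. Trim56 and Helz2, close to passing for genotype in 8 libraries (0.38 and 0.48, limma adjusted p = 0.0545 and 0.0673; in 10, 0.37 and 0.41, limma adjusted p = 0.285 and 0.314), had sex terms of 0.02 and 0.09.

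Sums of markers of other cells were below those of AT2 cells in every library. Of 12 macrophage and monocyte markers, 10 had a row, and they summed to 43.6 to 56.5 per M in wild type and 47.2 to 68.3 in knockout libraries, and to 53.2 to 68.3 in female and 43.6 to 56.5 in male ones. None of the 5 that were tested passed for genotype or sex with limma. All 5 lay above 0 in the 10-library and 8-library fits and in the sex term, with 1, 2 and 3 of them higher at unadjusted p under 0.05 (background 6.2%, 7.84% and 5.24%). With sex as a covariate in the 8 libraries, 2 of the 5 lay above 0, and the median was -0.05. There 1 was higher at unadjusted p under 0.05 (background 6.39%). Ly6c2, the largest part of the sum, had means of 25.1 ± 2.30 and 31.1 ± 3.44 per M in the 8 libraries (SD, n = 4 each, log2 fold change 0.30, limma adjusted p = 0.238). Cd68 had a log2 fold change of 0.78 there (limma adjusted p = 0.0842), Csf1r of 0.02, Mrc1 of 0.30 and Itgax of 0.27, and Fcgr1 was at or near 0 in every library. Lymphocyte markers, 4 of 9 with a row, summed to at most 0.83 per M, dendritic cell markers other than Bst2, 2 of 6, to 0.376 to 1.57, and none of the 5 neutrophil markers had a row. Fibroblast and smooth muscle markers, all 6 with a row, summed to 5.62 to 11.1 per M in wild type and 1.47 to 8.34 in knockout libraries. The 4 of them tested lay below 0 in both fits and none passed, with 2, Col1a1 (-1.03) and Col3a1 (-1.01) in the 8 libraries, lower at unadjusted p under 0.05 in each fit (background 3.28% and 5.25%). Endothelial markers, 5 of 6 with a row, summed to 9.84 to 15.6 per M, and club and ciliated cell markers, all 5 with a row, to 3841 to 8107 per M. The part of these cells in the differences between groups or sexes was not tested.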

How the data were processed

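Per the labels' protocols, polyadenylated RNA of sorted AT2 cells was sequenced on an Illumina NextSeq. Tools named without a role are bcl2fastq 2.17 and edgeR 3.14.0, with build mm10, by the authors in the submitters' processing notes. The authors' deposited table holds normalized counts, a signal that is never negative and not whole reads, with column totals of 6.94 to 7.43 M. Only 24.3% to 48.4% of low values, by library, came out whole within 0.1 when divided by a fitted step, so that reads could not be recovered and a count test was not used. The aligner, annotation, strand and method of normalization were not given in the sources used here.

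Values were scaled by the mean column total (7.14 M). The 12946 genes that reached 1 per M in 5 or more libraries were tested with limma-trend (limma 3.58.1, R 4.3.3) on log2(value + 0.5), two-sided, with Benjamini-Hochberg adjustment over all of them. Fold changes on this scale understate those of low genes. Rbck1 was tested by exact permutation. Lengths and coordinates are from GENCODE M21 (mm10) and promoters from RefSeq (GRCm38.p6). Tables used Python 3.11.15, pandas 2.3.3 and matplotlib 3.10.9.

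The genes and lists were chosen with earlier results of these data known, as was leaving out wild type 2 and knockout 1. Values in every library are given for genes called in either fit, the 8 with the smallest p in each, the 3 best expressed, and Isg15, Usp18, Irf7, Irf9, Stat2 and Ifi27l2a; others by means and counts; from the longer lists, up to 4 with the smallest p, of which 1 is not reported here. Names outside this rule (Cxcl10, Gbp3, Jak1, Ptprc, Cd68, Csf1r, Fcgr1, Ly6c2, Mrc1, Itgax, Col1a1, Col3a1, Trim30d, Ifi27) were chosen after their values were seen. Alternatives were pseudocounts of 0.1 and 2, no filter or 5 per M, other scaling factors, the replicate number as a block, run or sex as a covariate, sample weights, each run alone and each library left out. Reading the male libraries alone was added after seeing the data.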

Additional observations from a re-analysis of the deposited data

Results flagged for a closer look

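In 28 groups of 5 libraries (13 genes with values given in every library, and Rbck1, in each genotype), a library far from the other 4 was looked for by its gap over the range, where chance alone finds about 1 in 20. All 5 such values came from the library labelled wild type 2, the only female one of its group. The genes were chosen partly by their p in the 8 libraries without wild type 2, and its Rbck1 level was a reason for leaving it out. Their number therefore cannot be set against that chance rate. Within wild type it was far above the others for Oasl2 (15.3 per M), Irf9 (36.9 per M), Bst2 (47.1 per M) and Ifi27l2a (16.1 per M), and far below them for Rbck1 (29.7 per M).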

How the results depend on the processing

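Counts over the whole table moved most. With 10 libraries (0 genes called with limma), the run as a covariate gave 1, the second run alone 41, the 8 libraries 52, and leaving out 1 library 0 to 4; interferon-induced genes went from 0 to 4 in the 8 libraries and stayed at 0 to 1 when 1 library was left out. With 8 libraries (52 genes, 4 of them interferon-induced), no filter gave 4 and 0, sex as a covariate 27 and 1, the male libraries alone 29 and 1, a filter at 5 per M left 2 interferon-induced genes, and leaving out 1 library gave 19 to 100 and 1 to 7. Genes whose genotype difference varied with run numbered 2 in 10 libraries and 24 in 8. Same-numbered libraries deviated together with correlations of 0.314, 0.0265, 0.0986 and 0.0792, so the numbers were not taken as pairs. Fits with the replicate number as a block kept only numbers found in both groups. From the 10 libraries this left out wild type 6 and knockout 1, and gave 259 genes and 5 interferon-induced ones. From the 8 it left out wild type 6 and knockout 2, and gave 406 and 6. Blocking and the change of libraries cannot be told apart in these counts. The sign turned for Irf7 in 10 libraries with sex as a covariate (-0.048), in the second run (-0.12) and in male libraries (-0.16), for Usp18 in the same fits (-0.052, -0.28 and -0.13), for Bst2 in the first run (-0.17), and for both Irf7 and Usp18 without knockout 3 (ranges with 1 library left out -0.053 to 0.33 and -0.055 to 0.27). In 8 libraries Irf7 turned with sex and in male libraries (-0.16 in both), and Usp18 likewise (-0.20). Among the 13 genes, 302 of 321 alternative values in 10 libraries kept direction and call, 10 gained a call and 9 turned in sign; in 8 libraries 220 of 256 kept both, 26 lost a call, 6 gained one and 4 turned in sign; the causes were not tested. None of the other scaling factors turned the sign of any of the 13. Depth limits genes near 1 per M, and only 2 male libraries labelled knockout with low Rbck1 remained beside 4 male wild type ones.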
